A study of Mus musculus with 3 samples.

Results

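PP cells are the islet cells that make pancreatic polypeptide, the hormone encoded by Ppy. Here they were taken as cells with at least 200 Ppy UMIs per 10000 UMIs of the cell (CP10K) that stayed below 200 CP10K of glucagon (Gcg), 100 CP10K of somatostatin (Sst) and 3000 CP10K of insulin (Ins1 plus Ins2). A UMI is a molecular barcode that counts 1 captured RNA molecule. The cells were thus chosen by their RNA levels of these 5 genes. This rule took 264 of the 12308 cells kept, 18 of 859 (library 1) and 246 of 11449 (joint table). Because Ppy and the other 4 hormone genes chose the cells, their levels are given as a description and were not tested.

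The islets came from 6 mice with the alleles Ngn3-CreERT:R26-CAG-TdTomato that had received tamoxifen 10 days earlier, and all 3 samples are of this 1 group. Ngn3 (Neurog3) drives a tamoxifen-dependent Cre recombinase, which switches on the red reporter TdTomato from the ROSA26 locus. Replicate 1 is library 1, and replicates 2 and 3, with 2 mice pooled in each, share the joint table, whose 3 distinct barcode blocks no label ties to a sample. No sample lacks Cre or tamoxifen, so the comparisons below are between hormone classes of the same mice, with n = 2 tables. The p-values measure only the spread between these tables.

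Pancreatic polypeptide is released after meals under vagal control and restrains pancreatic secretion and food intake. It belongs to a peptide family with peptide YY (Pyy) and neuropeptide Y (Npy), which share a hairpin fold and act on Y receptors. PP cells are rare and lie mostly in the part of the pancreas that derives from the ventral bud.

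Ppy (ENSMUSG00000017316.13) and Pyy (ENSMUSG00000017311.15) lie on the minus strand of mouse chromosome 11. In GENCODE M21 on GRCm38, Ppy spans chr11:102099930-102101319 and Pyy spans chr11:102106676-102107832, with 5356 bases between them. The 250 bases before the start of each gene are shown because both genes had their highest class mean in PP cells. They are from RefSeq (GRCm38.p6), lie at chr11:102101320-102101569 and chr11:102107833-102108082 on the minus strand, and are written 5′ to 3′. Capitals mark TATAA and TGCTGAC, searched on both strands.
Ppy: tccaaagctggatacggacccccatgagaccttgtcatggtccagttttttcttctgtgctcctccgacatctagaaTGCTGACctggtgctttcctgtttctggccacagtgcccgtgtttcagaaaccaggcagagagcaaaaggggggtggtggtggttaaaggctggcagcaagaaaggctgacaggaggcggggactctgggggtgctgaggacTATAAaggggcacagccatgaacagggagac
Pyy: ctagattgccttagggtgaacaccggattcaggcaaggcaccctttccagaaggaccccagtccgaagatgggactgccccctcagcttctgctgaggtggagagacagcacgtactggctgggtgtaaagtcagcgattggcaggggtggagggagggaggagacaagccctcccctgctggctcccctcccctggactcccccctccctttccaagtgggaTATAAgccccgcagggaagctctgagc
TATAA, the core of a TATA box, starts 31 bases before the start of Ppy and 27 bases before the start of Pyy. It is found in 22.8% of the 32851 promoter windows of this length. TGCTGAC, a core of the element that Mafa binds, starts 173 bases before the start of Ppy, was not matched in the Pyy window and is found in 3.81% of all windows. These matches are letters only and no binding was measured.

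PP cells made up 2.10% of the kept cells in library 1 (95% exact Clopper-Pearson interval 1.25 to 3.29) and 2.15% in the joint table (1.89 to 2.43). In the 3 barcode blocks the shares were 2.15%, 2.03% and 2.23%, from 112, 53 and 81 cells, so the share differed by less than its counting error. Intervals cover counting error only. The median PP cell had 21150 UMIs and 3466 genes in library 1 and 12360 UMIs and 2169 genes in the joint table. No PP barcode was found in more than 1 block or in both tables, while the blocks share 6, 4 and 4 barcodes and library 1 shares 5, 1 and 0 with them over all columns.

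Most cells with Ppy past its limit also had another hormone past its own. In library 1, 100 cells passed the Ppy limit, of which 18 were PP cells, 28 had Gcg, 42 had Sst, 1 had insulin and 11 had 2 or more other hormones. The joint table had 1064 cells past it, of which 246 were PP cells, 258 had Gcg, 377 had Sst, 69 had insulin and 114 had 2 or more others. The PP cells were thus 18.0% and 23.1% of the Ppy cells. Doublets were not called by a program. The hormone limits take out only pairs of cells whose other hormone stays past its limit, and a pair whose insulin falls below 3000 CP10K can pass.

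The Ppy limit lay in a gap and the insulin limit did not. The PP cells with the least Ppy had 617.5 and 287.4 CP10K in the 2 tables (library 1 first), and the nearest cells below the limit that met the other limits had 68.2 and 159.4. Within 2 times of the Ppy limit lay 7 cells of the joint table, 2 of them PP cells. Within 2 times of the insulin limit lay 89 cells, 24 of them PP cells, the highest at 2898 CP10K and the nearest cell above at 3032. For Gcg, 31 cells lay within 2 times of the limit, 7 of them PP cells, with 197.0 and 202.6 CP10K on its sides.

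**Figure D1:**
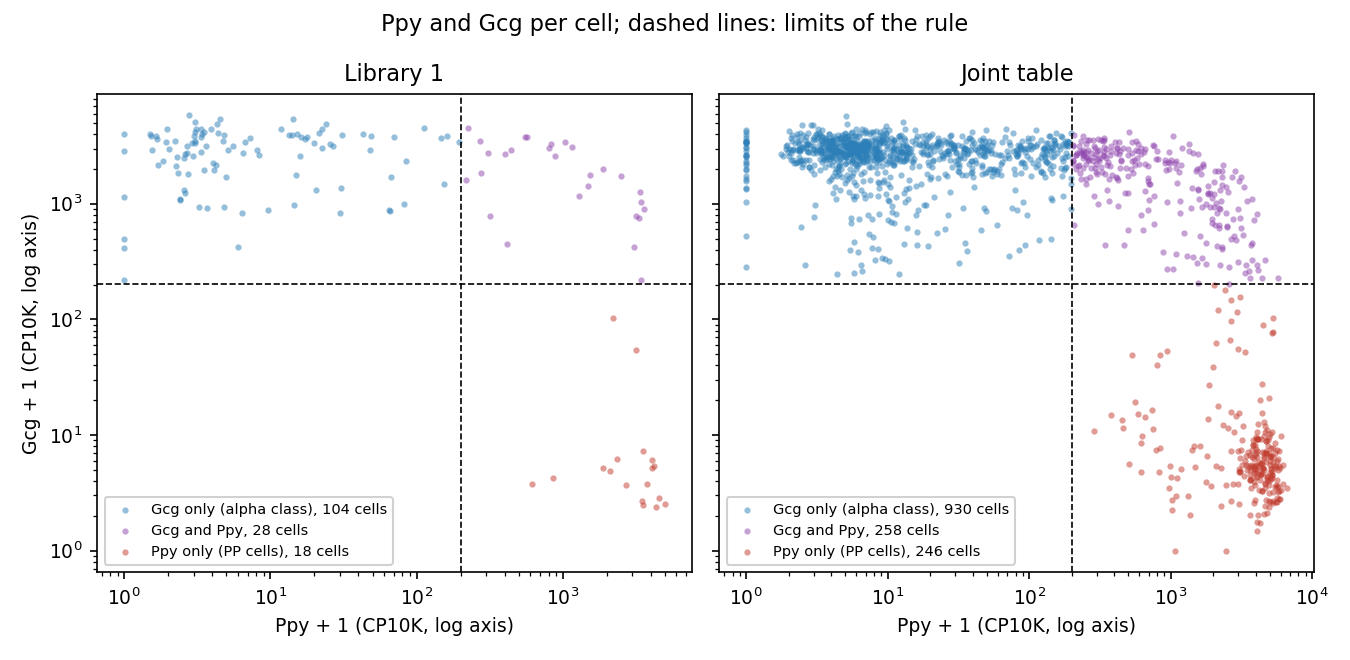
Each point is 1 cell of library 1 (left) or the joint table (right), with Ppy on the x axis and Gcg on the y axis, both as CP10K plus 1 on log axes. Red points are PP cells, purple points have both hormones, blue points have Gcg only, and dashed lines are the limits of 200 CP10K, which chose the groups. Cells with both hormones join the Gcg-only cells to the PP cells, and most PP cells lie far below the Gcg limit.

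Ppy RNA had a median of 3517 CP10K in the PP cells of library 1 (lowest 617.5, highest 4981) and of 4051 in the joint table (287.4 to 6599). Gcg had medians of 3.55 and 4.54 CP10K and Sst of 0 and 1.13. Insulin RNA differed between the tables, with a median of 51.7 CP10K in library 1 (27.5 to 2595) and 364.9 in the joint table (61.6 to 2898). This is not particular to PP cells. Mean Ins2 was 101 and 468 CP10K in cells with Gcg only, 47.1 and 368 in cells with Gcg and Ppy, and 190 and 737 in cells with Sst only. Cells with insulin only had 4662 and 4687.

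Pyy, whose peptide slows gut transit and curbs appetite, was not part of the rule and was found in nearly every PP cell. Its median was 988.5 CP10K in library 1 (lowest 240.5, highest 3249) and 1008 in the joint table (0 to 3174), and it had a UMI in 18 of 18 and 245 of 246 cells. The blocks had means of 1159, 1105 and 964.7 CP10K. Against these, cells with both Gcg and Ppy had means of 704 and 696 CP10K in the 2 tables, Sst-only cells 447 and 391, Gcg-only cells 136 and 139, and insulin-only cells 2.06 and 1.64. Both tables gave the same order of classes, with PP cells at the top.

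Comparisons between classes used limma on log2(mean CP10K + 0.05) of each class in each table, with the columns centred on their median and the table as a block, and a Benjamini-Hochberg adjusted p under 0.05 over 8668 genes as the threshold. Differences below are on that scale, which understates the change of low genes. On it, Pyy was 3.36 ± 0.15 (SE) higher in PP cells than in Gcg-only cells (limma adjusted p = 1.12e-09), 2.05 ± 0.15 higher than in Sst-only cells (limma adjusted p = 3.97e-07) and 8.88 ± 0.15 higher than in insulin-only cells (limma adjusted p = 1.69e-15). Against cells with both hormones the difference was 0.85 ± 0.15 (limma adjusted p = 0.0072), and this call was lost without the table block and without either table's PP column. Of the other PP-fold members, Npy had a UMI in 0 of 18 PP cells (3 counts of 18, the limit that a count of 0 allows, are 16.7%) and in 3 of 246 (1.22%, against 1.28% of non-endocrine cells). In the joint table Npy4r, the receptor that binds pancreatic polypeptide best, and Npy2r, Npy5r and Npy6r had no UMI in PP cells. They had none in the other hormone classes or the non-endocrine cells either, so this is not particular to PP cells.

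Against Gcg-only cells, the alpha class of 104 and 930 cells, PP cells were higher in 195 genes and lower in 183 of the 8668 tested (2.25% and 2.11%, or 378 and 4.36% in all). Higher were Tspan8 and Pyy, the granule protein gene Iapp and the beta cell factors Nkx6-1 and Pdx1. Lower were the alpha cell factors Irx1 and Irx2 and the alpha cell genes Ttr, Slc38a5 and Higd1a. Without centring on the median the split was 86 higher and 876 lower, because the median gene differed by -0.23 log2 in library 1 and -0.41 in the joint table, so all differences are relative to that median. Without the PP column of library 1 the test made 157 calls, and 644 without that of the joint table.

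**Figure D2:**
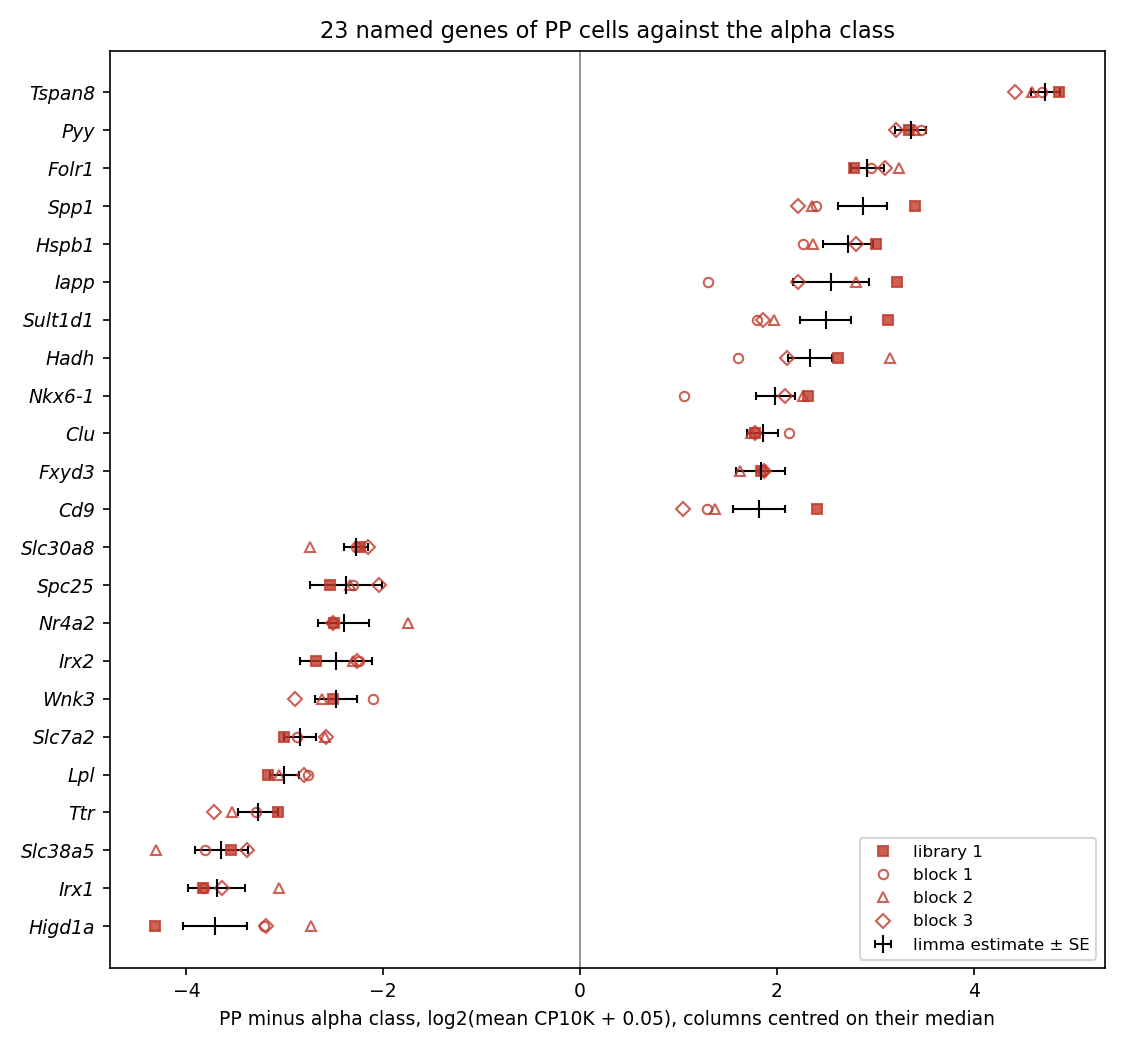
For the 12 genes most raised and 11 of the 12 most lowered in PP cells against Gcg-only cells, the x axis gives the difference in log2(mean CP10K + 0.05) after centring. Black bars are the limma estimate ± SE from the fit of all 5 classes in the 2 tables, filled squares are library 1 and open symbols the 3 barcode blocks. All 23 genes keep their direction in library 1 and in the 3 blocks, from Tspan8 (4.73) to Higd1a (-3.71), and that was part of the rule that chose them.

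Tspan8 (chr10:115816832-115849893, plus strand), which encodes a tetraspanin of the cell surface, had the largest rise over Gcg-only cells. Its mean in PP cells was 7.88 CP10K in library 1 and 5.04, 5.25 and 4.82 in the blocks, against 0.269 and 0.230 in Gcg-only cells of the 2 tables. The difference was 4.73 ± 0.15 log2 (limma adjusted p = 4.21e-12). It had a UMI in 18 of 18 and 233 of 246 PP cells (94.7%) but in 14.6% of Gcg-only and 3.76% of non-endocrine cells of the same table, at median depths of 12360, 7684 and 2896 UMIs. After thinning every cell to 2000 UMIs, 58.8% of PP cells and 4.92% of Gcg-only cells had a UMI. Sst-only cells also carried it, with means of 4.22 and 3.74 CP10K, 1.27 ± 0.15 log2 below PP cells (limma adjusted p = 4.18e-05).

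Folr1, a folate receptor, was higher as well, with means of 2.83 and 2.39 CP10K in PP cells and 0.440 and 0.341 in Gcg-only cells, a difference of 2.92 ± 0.17 log2 (limma adjusted p = 1.73e-08). Spp1, which encodes the secreted phosphoprotein osteopontin, had 4.72 and 1.96 CP10K against 0.478 and 0.478, a difference of 2.87 ± 0.25 log2 (limma adjusted p = 3.1e-06). Spp1 is also a duct marker. Of the 9 genes of the duct list 6 were tested, and Spp1 and Epcam rose against Gcg-only cells, as did 2.25% of all genes tested. Krt19 and Cftr had no UMI in the PP cells or the Gcg-only cells of either table. The summed list had means of 8.43 and 4.51 CP10K in PP cells against 3.07 and 2.82 in Gcg-only cells. That sum includes Spp1 itself, so it is no separate measure of duct RNA. The part of duct RNA in the Spp1 result was not tested. Clu, the chaperone clusterin, and Fxyd3, a regulator of the sodium pump, rose by 1.86 ± 0.16 and 1.84 ± 0.25 log2 against Gcg-only cells. Cd9, another tetraspanin, rose by 1.82 ± 0.26 log2. Folr1, Clu and Fxyd3 are not particular to PP cells. Sst-only cells had 2.261 and 1.854 CP10K of Folr1. For Clu they had 5.502 and 5.442 against 1.421 and 1.357 in PP cells, and for Fxyd3 2.795 and 1.501 against 0.846 and 0.8418. Cd9 was lower in Sst-only cells, with 0.1288 and 0.1243 CP10K against 1.611 and 0.9046.

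Hspb1, a small heat shock protein, Sult1d1, a sulfotransferase, and Hadh, a mitochondrial enzyme of fatty acid oxidation that beta and delta cells express strongly, were the enzymes and chaperones with the largest rises. Their differences from Gcg-only cells were 2.72 ± 0.25, 2.5 ± 0.26 and 2.34 ± 0.23 log2. Hspb1 is not particular to PP cells, since Sst-only cells had 2.31 and 1.59 CP10K against 0.842 and 0.580. The same holds for Sult1d1, with 1.368 and 0.9379 CP10K in Sst-only cells and 1.504 and 0.6899 in PP cells. Hadh had 1.76 and 0.975 CP10K in PP cells, 0.295 and 0.278 in Gcg-only cells and 3.27 and 2.87 in insulin-only cells. The class mean lay between those classes in both tables, and its difference from insulin-only cells was -1.54 ± 0.23 log2 (limma adjusted p = 0.000187). A minority of PP cells with high Iapp, described at the end, had 5.75 and 3.28 CP10K of Hadh and the other PP cells 0.963 and 0.606. Without that minority the difference from Gcg-only cells was 1.68 log2 and kept its call.

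Irx1 and Irx2, Iroquois homeodomain factors of alpha cells, fell against Gcg-only cells. Irx1 had 0.0137 and 0.0161 CP10K in PP cells of the 2 tables, 1.01 and 0.985 in Gcg-only cells and 0.432 and 0.458 in cells with both hormones. Its difference from Gcg-only cells was -3.69 ± 0.29 log2 (limma adjusted p = 1.06e-06), and 5 of 246 PP cells (2.03%) had a UMI against 50.3% of Gcg-only cells. Irx2 had 0.111 and 0.166 CP10K against 1.16 and 1.34, a difference of -2.48 ± 0.37 log2 (limma adjusted p = 0.000658), and 37 of 246 PP cells had a UMI. Tshz2, another factor on the list of alpha cell factors, was at 0.30 ± 0.16 log2, did not pass (limma adjusted p = 0.351) and changed sign without centring. The count over the whole list is not reported here.

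Genes of alpha cell function were lower where they changed. Of 12 tested alpha effector genes 0 were higher and 8 lower, with a median difference of -1.86 log2. Of all genes tested 2.25% were higher and 2.11% lower. Ttr, the thyroxine carrier transthyretin, had 22.3 and 19.7 CP10K in PP cells, 220 and 291 in Gcg-only cells and 2.39 to 5.05 in Sst-only and insulin-only cells. It was -3.27 ± 0.20 log2 below Gcg-only cells (limma adjusted p = 3.68e-08) and 1.74 ± 0.20 above insulin-only cells (limma adjusted p = 1.75e-05). Slc38a5, the glutamine carrier that alpha cells use when they proliferate, had 0.0226 and 0.0231 CP10K against 0.945 and 1.25, a difference of -3.64 ± 0.27 log2 (limma adjusted p = 3.57e-07). Higd1a, a mitochondrial protein, Slc7a2, a carrier of cationic amino acids, and the kinase Wnk3 fell by 3.71, 2.85 and 2.48 log2. Gc, the vitamin D binding protein, had 1.17 and 1.37 CP10K in PP cells and 1.69 and 1.51 in Gcg-only cells, and did not pass (limma adjusted p = 0.997).

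Outside these lists, Lpl (lipoprotein lipase), Nr4a2 (an orphan nuclear receptor), Spc25 (a kinetochore subunit) and Slc30a8 (the zinc carrier of hormone granules) were among the 12 most lowered genes, with the call of Spc25 lost without the table block. Slc30a8 had 1.15 and 0.828 CP10K in PP cells, 6.59 and 5.74 in Gcg-only cells and 4.60 and 4.01 in insulin-only cells. It fell by 2.27 log2 against Gcg-only cells and by 2.43 against insulin-only cells (limma adjusted p = 9.34e-09 and 2.12e-09).

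**Figure D3:**
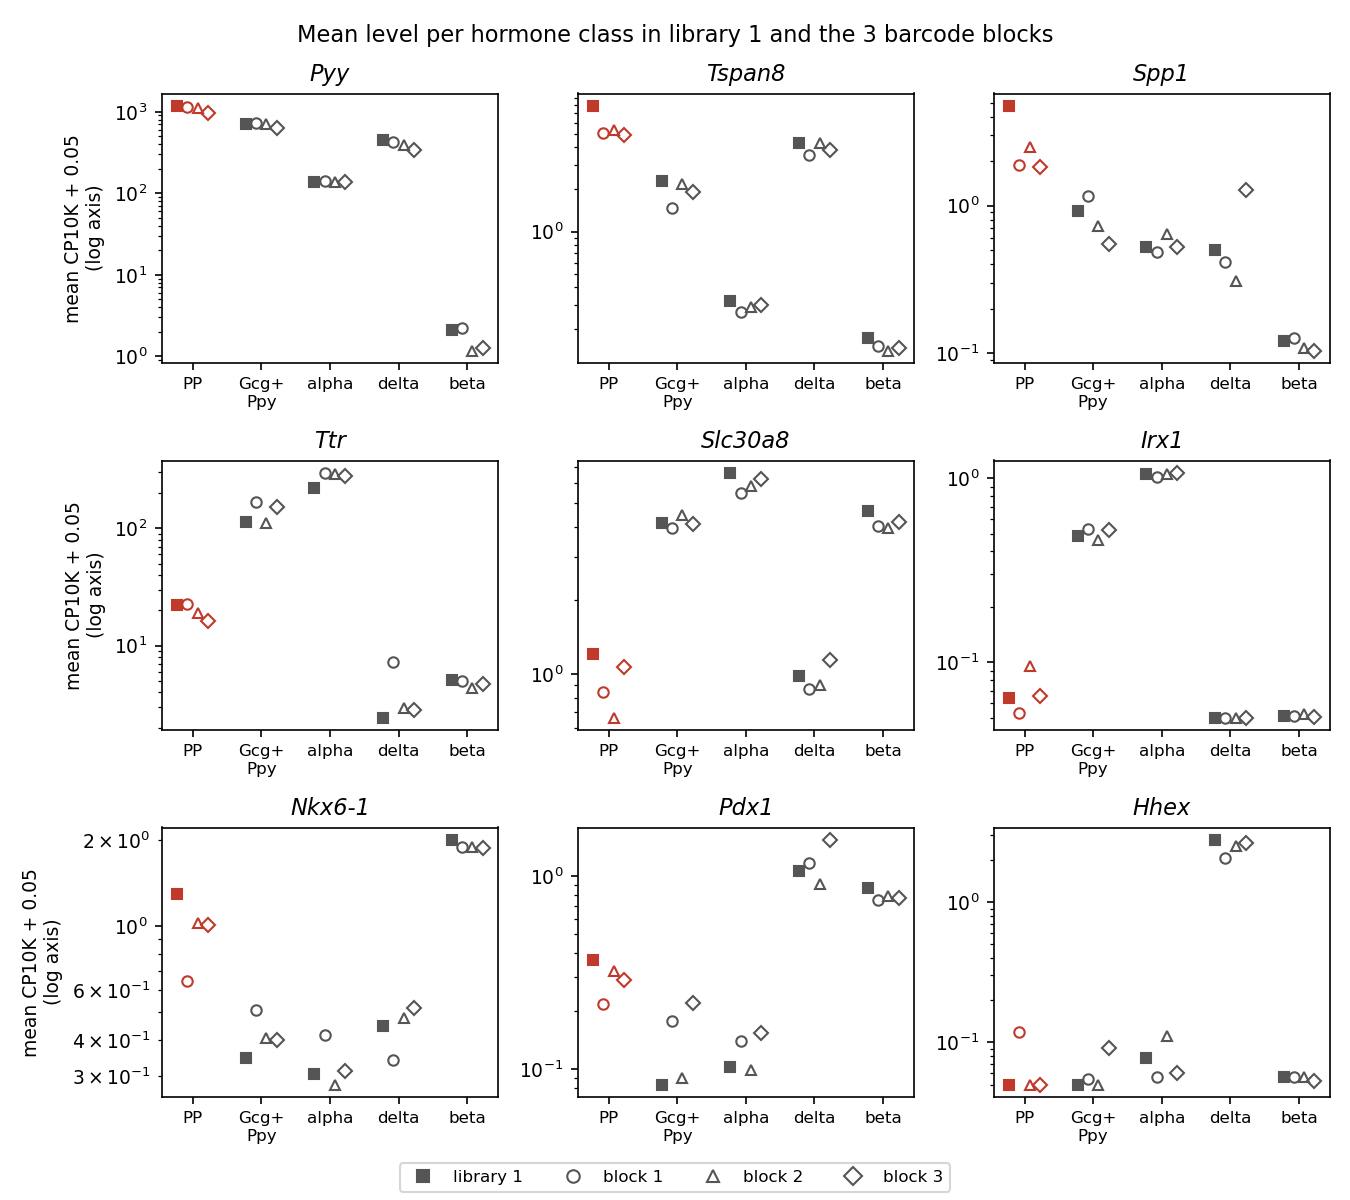
Each panel gives the mean level of 1 gene in 5 hormone classes, as CP10K plus 0.05 on a log axis, with a filled square for library 1 and open symbols for the 3 barcode blocks. PP cells are in red and the other classes in grey. PP cells lie beside Sst-only and insulin-only cells for Irx1, between Gcg-only and insulin-only cells for Ttr, Nkx6-1 and Pdx1, and below both for Slc30a8.

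The beta cell factors Nkx6-1 and Pdx1 had means between those of Gcg-only and insulin-only cells in both tables, and Mafa lay below both. Nkx6-1, a homeodomain factor of beta cells and their progenitors, had 1.25 CP10K in library 1 and 0.594, 0.976 and 0.958 in the blocks of PP cells, against 0.255 and 0.309 in Gcg-only, 0.400 and 0.372 in Sst-only and 1.96 and 1.84 in insulin-only cells. It was 1.99 ± 0.20 log2 above Gcg-only cells (limma adjusted p = 1.18e-05) and -1.24 ± 0.20 log2 below insulin-only cells (limma adjusted p = 0.000373). Pdx1, needed for pancreas formation and for insulin transcription, had 0.317 and 0.213 CP10K in PP cells, 0.0530 and 0.0858 in Gcg-only cells, 1.01 and 1.15 in Sst-only cells and 0.815 and 0.717 in insulin-only cells. It was 1.72 ± 0.28 log2 above Gcg-only cells (limma adjusted p = 0.00133), a call lost without the PP column of library 1. Without the Iapp-high cells the Pdx1 mean of the joint table was 0.105 CP10K, near that of Gcg-only cells, and the difference was 1.25 log2 and kept its call. Mafa, the factor of mature beta cells, had 0.0468 and 0.375 CP10K in PP cells and 0.179 and 0.460 in Gcg-only cells, and did not pass between them. In PP cells it was -4.71 ± 0.31 log2 below insulin-only cells (limma adjusted p = 5.57e-08).

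Over the beta list as a whole, 4 of 17 tested genes were higher in PP cells than in Gcg-only cells (Nkx6-1, Pdx1, Iapp and the prolactin receptor Prlr) and Slc30a8 was lower, with a median of 0.44 log2. Of all genes tested against Gcg-only cells 2.25% were higher and 2.11% lower. Against insulin-only cells 15 of 17 were lower and 0 higher, with a median of -3.45 log2, where 6.07% of all genes tested were lower. Iapp, the amyloid peptide that beta and delta cells release, had means of 88.1 and 98.7 CP10K in PP cells and 11.1 and 35.5 in Gcg-only cells, a difference of 2.55 ± 0.39 log2 (limma adjusted p = 0.000812). Its medians in PP cells were 5.03 and 20.5 CP10K, so the mean rested on a minority of cells, described at the end. The call was lost without the table block and without the PP column of library 1. With PP cells limited to insulin under 500 CP10K, a setting chosen after the data were seen, the Iapp difference was 1.01 log2 and lost its call, as did those of Prlr, Mlxipl and Pcsk1, while Nkx6-1 (1.80) and Pdx1 (1.30) kept theirs.

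Of 13 tested factors shared by endocrine cells, Mlxipl, a glucose-responsive factor, was higher than in Gcg-only cells and Neurod1, a basic helix-loop-helix factor, lower (-0.89 ± 0.17 log2, limma adjusted p = 0.00428, lost without the table block and without the PP column of library 1). The other 11 did not pass. Over all genes tested against Gcg-only cells 2.25% were higher and 2.11% lower, 4.36% in all. Of 10 tested genes of endocrine progenitors 0 passed with limma in PP cells against Gcg-only cells, among them Fev, a factor of late progenitors, with 0.435 and 0.335 CP10K in PP and 0.310 and 0.406 in Gcg-only cells. With 4.36% of all genes called, a count of 0 among 10 is near that share. Of 11 tested delta cell genes, Hadh was higher than in Gcg-only cells and Rbp4 and Arg1 were lower. Hhex, the factor that defines delta cells, had a UMI in 0 of 18 and 4 of 246 PP cells against 24 of 26 and 153 of 237 Sst-only cells. Of 8 tested genes that other data sets list for PP cells, 3 were higher than in Gcg-only cells (Pyy, Tspan8 and the proteoglycan gene Spock1). Etv1 was lower, with its call lost under 6 of 13 alternatives. Against Sst-only cells 2 of the 8 were higher (Pyy and Tspan8) and 4 lower (Meis2, Spock1, Slitrk6 and Fxyd6), where 6.39% and 5.19% of all genes tested were. Spock1 had 0.120 and 0.143 CP10K in PP cells, 0.939 and 0.845 in Sst-only cells and 0.185 and 0.215 in insulin-only cells. Vsig1, a junction protein on that list, was too low to test. It had a UMI in 5 of 18 and 17 of 246 PP cells, 0 of 104 and 1 of 930 Gcg-only cells and 0 of 1488 non-endocrine cells. Median depths in the joint table were 12360, 7684 and 2896 UMIs. Of other members too low to test, Zfp503 was also higher than in Gcg-only cells. Thsd7a, Id4, Sertm1 and Cartpt were lower in both tables, Thsd7a with 0 and 0.00419 CP10K against 0.135 and 0.0963.

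Prohormone processing differed in composition. Pcsk2 and Pcsk1 encode the convertases that cut prohormones, and Cpe trims the ends. Pcsk2 had 16.2 and 18.5 CP10K in PP cells and 32.3 and 38.1 in Gcg-only cells, a difference of -0.69 ± 0.12 log2 (limma adjusted p = 0.00211) that lost its call without the table block and without the PP column of library 1. Pcsk1 had 0.709 and 0.341 CP10K against 0.0451 and 0.123 in Gcg-only cells, a difference of 2.41 ± 0.38 log2 (limma adjusted p = 0.001) that fell to 1.49 and lost its call at insulin under 500 CP10K. The granin Scg2 had 13.2 and 11.5 CP10K in PP cells and 5.45 and 5.39 in Gcg-only cells, 1.5 ± 0.12 log2 higher (limma adjusted p = 1.12e-06). In all, 3 of 14 genes of the list were higher (Scg2, Chgb and Pcsk1) and 5 lower (Pcsk2, Cpe, Pcsk1n, Pam and Vgf, the last of which passed the filter on low values only through the Gcg-only columns), and of these 8 genes Scg2 alone kept its call under all 13 alternatives run. Of the 15 tested genes of the exocytosis machinery and the 18 of ion channels, 0 passed with limma, with medians of -0.12 and -0.22 log2. Over all genes tested 2.25% were higher and 2.11% lower, 4.36% in all. A count of 0 in lists of this size is near that share.

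Among receptors, 2 of 14 tested were higher in PP cells than in Gcg-only cells and 2 lower, where 2.25% and 2.11% of all genes tested were. Chrm3, the muscarinic receptor through which acetylcholine acts on islet cells, had 0.0940 and 0.219 CP10K in PP cells and 0 and 0.00952 in Gcg-only cells, with a UMI in 50 of 246 PP cells (20.3%, 15.5 to 25.9), 7 of 930 Gcg-only cells (0.753%) and 3.50% of non-endocrine cells. The difference was 2.17 ± 0.35 log2 (limma adjusted p = 0.00139). Galr1, a galanin receptor, had 0.203 and 0.0935 CP10K against 0.0155 and 0.00582 and was 1.98 ± 0.41 log2 higher (limma adjusted p = 0.00856), a call lost without the PP column of library 1 and with no filter on low values. Oxtr, the oxytocin receptor, had 0.0288 and 0.0342 CP10K against 0.444 and 0.652 and was -2.53 ± 0.30 log2 lower (limma adjusted p = 9.13e-05). Gria2, a glutamate receptor subunit, fell by 1.03 log2. Chrm3 and Galr1 were not particular to PP cells. Insulin-only cells had 0.147 and 0.183 CP10K of Chrm3 and 0.115 and 0.158 of Galr1, and neither was called between PP and insulin-only cells. Sst-only cells had 0.135 and 0.0992 CP10K of Chrm3 and 0 and 0.0697 of Galr1.

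Carriers of amino acids, which drive alpha cell secretion and growth, were lower where they changed. Of 7 tested, Slc38a4, Slc7a8 and Slc3a2 fell by 2.11, 1.66 and 0.94 log2 and 0 were higher, with a list median of -0.73 log2. Of all genes tested 2.11% were lower and 2.25% higher. Slc38a4 had 0.0937 and 0.199 CP10K in PP cells and 0.881 and 1.06 in Gcg-only cells. Of 10 tested genes of glucose metabolism only the gluconeogenic Fbp1 passed, at 0.0214 and 0.0444 CP10K in PP cells against 0.476 and 0.378 in Gcg-only cells (-2.21 ± 0.30 log2, limma adjusted p = 0.000335). Over all genes tested against Gcg-only cells 4.36% passed. Of 16 immediate early and heat shock genes Dnajb1 passed against Gcg-only cells, a call lost without the PP column of library 1, whereas 11 of 16 were higher than in insulin-only cells (8.09% of all genes tested), Fos for example with 26.5 and 19.8 CP10K against 5.95 and 4.85. These genes answer to cell dissociation, and its part in the result was not tested.

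Cells past both the Gcg and the Ppy limit, 28 and 258 in number, were the class with the fewest differences from PP cells. Against them 51 genes were higher in PP cells and 85 lower (0.588% and 0.981% of 8668, or 136 and 1.57% in all). Without centring the split was 31 and 184, without the table block 14 and 26, and with edgeR on summed UMIs 81 and 145. Without the PP column of library 1 the test made 46 calls, and 332 without that of the joint table. In PP cells Hadh, Spp1 and Tspan8 were higher by 2.04 ± 0.23, 1.93 ± 0.25 and 1.81 ± 0.15 log2, and Iapp and Sult1d1 by 2.67 ± 0.39 and 1.68 ± 0.26, both lost without the PP column of library 1. Higd1a, Lpl, Ttr and Wnk3 fell by 3.52, 2.51, 2.48 and 2.23 log2. Irx1 in the cells with both hormones, at 0.432 and 0.458 CP10K, lay between PP cells (0.0137 and 0.0161) and Gcg-only cells (1.01 and 0.985), as did Ttr, Lpl and, rising, Tspan8 and Pyy in both tables. Gcg and Ppy chose these classes, and they share the mice of each table.

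Against Sst-only cells, the delta class of 26 and 237 cells, 554 genes were higher in PP cells and 450 lower (6.39% and 5.19%, or 1004 and 11.6% in all). Without centring the split was 132 and 3258, and the median gene differed by -0.53 and -0.69 log2 in the 2 tables. Without the PP column of library 1 the test made 355 calls. Higher in PP cells were Cd9 (3.44 ± 0.26 log2, limma adjusted p = 4.44e-07), Ociad2 (3.37 ± 0.22), Ttr (3.2 ± 0.20), Ddc, which makes dopamine and serotonin (3.13 ± 0.30), Spp1 (3.08 ± 0.25) and Cadps, a factor of granule priming (2.90 ± 0.22). Lower were Cd24a, Arg1, Hhex, Ptprz1, Ly6h, Dpp6, Rbp4 and Gap43, with differences of -3.87 to -5.54 log2. Of these, Cd24a, Hhex, Ptprz1, Ly6h, Dpp6 and Gap43 passed the filter on low values (0.1 CP10K in at least 2 columns) only through the Sst-only columns, so that filter fixed their direction. The same holds for 114 of the 450 genes called lower, and for 4 of the 11 tested delta cell genes. Of the other 7 delta cell genes 5 were lower and 0 higher. Rbp4, the retinol carrier, had 1.63 and 1.49 CP10K in PP cells and 59.4 and 31.0 in Sst-only cells.

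Against insulin-only cells, the beta class of 467 and 7095 cells, 701 genes were higher in PP cells and 526 lower (8.09% and 6.07%, or 1227 and 14.2% in all). Without centring the split was 1715 and 262, since the median gene was higher in PP cells by 0.46 and 0.24 log2. Without the PP column of library 1 the test made 675 calls. Among the largest rises after Pyy were Tspan8 (4.95 ± 0.15), Spp1 (4.37 ± 0.25), the secreted glutathione peroxidase Gpx3 (3.92 ± 0.19), the ETS factor Etv1 (3.66 ± 0.16) and the calcium buffer Calb1 (3.53 ± 0.23). The largest falls were Mafa, the glucose-6-phosphatase gene G6pc2, Prss53, the glucose carrier Slc2a2, Tmem215, Cox6a2, the cation channel Trpm5 and Fam151a, with differences of -3.90 to -4.71 log2, and of these Cox6a2 and Fam151a passed the filter on low values only through the insulin-only columns. Slc2a2 had 0.0888 and 0.229 CP10K in PP cells and 3.40 and 3.32 in insulin-only cells.

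Outside the 5 hormone genes of the rule, Iapp varied most among PP cells. Among these other genes, with a mean of at least 0.5 CP10K in the joint table, the largest Fano factors (variance over mean of CP10K) were those of Iapp (530), Pyy (375.5), the nuclear RNA Malat1 (279.2), Apoe, Cd74, H2-Eb1 and Chga (117.4). Apoe and Cd74, genes of macrophages, had UMIs in 26 and 11 of 246 PP cells, with 50.7% and 59.8% of the UMIs in the richest cell. The macrophage and lymphocyte list had a mean sum of 0.280 CP10K in PP cells of library 1, with 9 of 11 genes at 0, and 3.39 in the joint table, with 6 of 14 at 0 and a median of 0, against 116.5 and 78.3 in non-endocrine cells. The endothelial and the stromal and glial lists had means of 0.234 to 0.393 CP10K in PP cells, with medians of 0 to 0.259. The acinar list had 1.29 and 9.29 CP10K, against 1.43 and 27.6 in non-endocrine cells.

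A minority of PP cells carried Iapp at the level of beta cells. At 100 CP10K of Iapp, a division chosen after the data were seen and therefore untested, 3 of 18 and 34 of 246 PP cells lay above (11, 8 and 15 in the blocks) and 15 and 212 below. Within 2 times of this value lay 6 of the cells above and 9 of those below, in the joint table. Cells above had mean Iapp of 500 and 577 CP10K in the 2 tables, cells below 5.63 and 22.0, and insulin-only cells 318 and 283. Their insulin had medians of 1761 and 1602 CP10K against 50.6 and 330.4 below, and their Ppy medians of 854.3 and 1053 against 3553 and 4324.

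Chga, the granin that marks endocrine granules, had 218 and 169.5 CP10K in the Iapp-high PP cells, 21.8 and 15.1 in the other PP cells, and 41.5 and 31.3 in insulin-only cells. The Iapp-high cells thus exceeded both the other PP cells and the beta class in both tables. Mlxipl showed the same order with 2.61 and 2.27, 0.165 and 0.178, and 0.848 and 0.887 CP10K. Scg2 had 26.7 and 25 CP10K against 10.5 and 9.29, and Nkx6-1 2.28 and 2.28 against 1.04 and 0.558. Pcsk1, Prlr and Pdx1 were also higher in the Iapp-high cells of both tables.

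Several genes that were higher in PP cells than in Gcg-only cells were lower in the Iapp-high cells than in the other PP cells. Hspb1, also abundant in Sst-only cells, had a UMI in 0 of 3 and 0 of 34 of them against 6 of 15 and 58 of 212 of the others, and Spp1 in 0 of 3 and 6 of 34 against 11 of 15 and 137 of 212. Pyy had 642 and 419 CP10K against 1293 and 1190, and Tspan8 4.36 and 3.30 against 8.58 and 5.29. Folr1 went the other way, with 5.355 and 3.742 CP10K in the Iapp-high cells against 2.328 and 2.168, as did Hadh and Nkx6-1 above. Clu differed in direction between the tables, with 1.477 and 0.4796 CP10K against 1.409 and 1.497. Genes of beta cell maturity were mixed. Mafa had 0 and 0.566 CP10K against 3.63 and 4.66 in insulin-only cells, and Slc2a2 0.533 and 0.275 against 3.40 and 3.32. Ucn3, the urocortin of mature beta cells, had 0.598 and 1.12 CP10K in the Iapp-high cells, 0 and 0.113 in the other PP cells and 1.71 and 1.87 in insulin-only cells. Prlr had 1.61 and 1.67, 0 and 0.151, and 3.59 and 3.05 CP10K in the same order, and G6pc2 0.402 and 1.19, 0 and 0.286, and 4.61 and 4.57. Their median UMIs were 24560 and 9111, against 20300 and 12780 in the other PP cells and 39180 and 19990 in insulin-only cells. Their mitochondrial share had a median of 9.36% and 8.32% against 4.26% and 3.06%. The part of cell damage or of 2 cells in 1 droplet in these values was not tested, and these cells move the class means above of Iapp, Pcsk1, Mlxipl, Prlr, Hadh and Pdx1, among others.

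**Figure D4:**
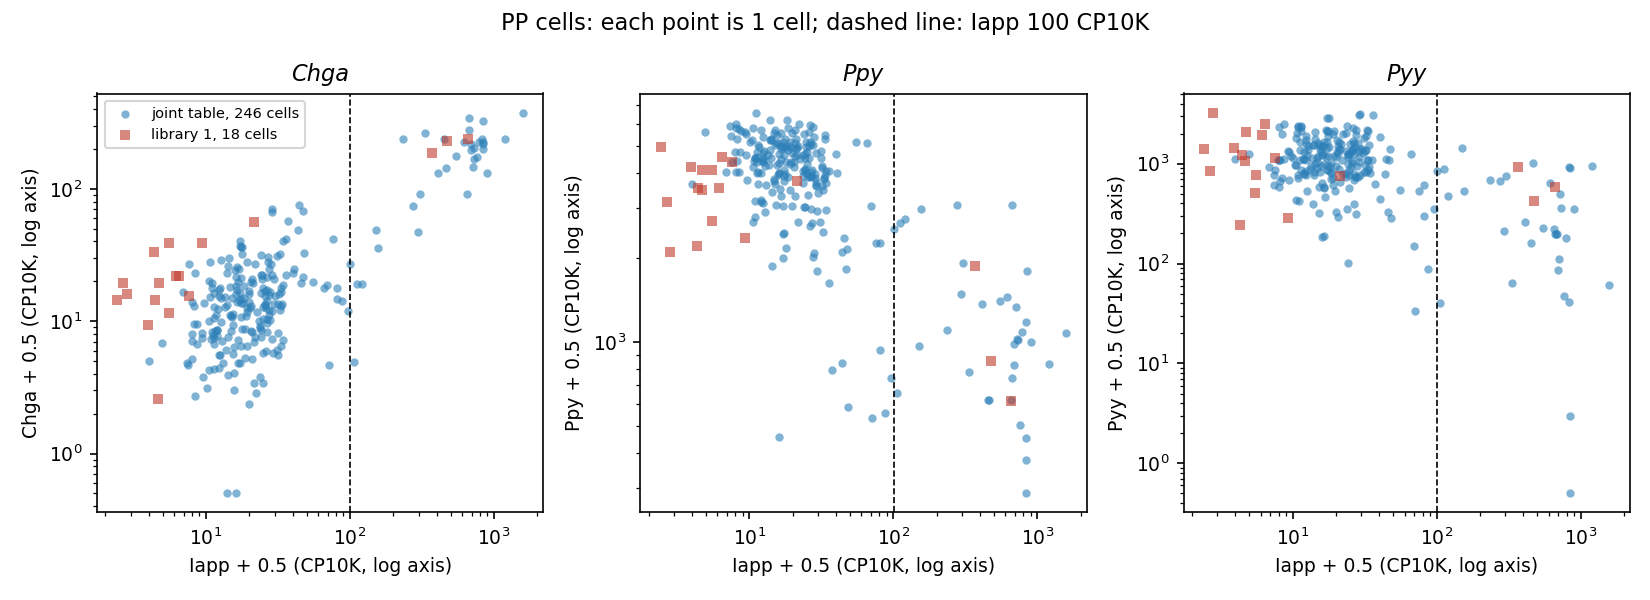
Each point is 1 PP cell, with Iapp on the x axis and Chga, Ppy or Pyy on the y axis, as CP10K plus 0.5 on log axes. Red squares are the 18 cells of library 1, blue circles the 246 of the joint table, and the dashed line is 100 CP10K of Iapp. Most cells to its right have higher Chga, lower Ppy and lower Pyy than the cells to its left.

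Across PP cells Ppy and Iapp in logs had a Pearson correlation of -0.81 over 18 cells and -0.76 over 246 (Spearman -0.35 and -0.57). For Ppy and Pyy the values were 0.46 and 0.59 (Spearman 0.48 and 0.089), so in the joint table the rank relation was weak. Cells share a library and each value is a share of the same total, in which Ppy alone is large.

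Neurog3, the progenitor factor whose driver labels cells in these mice, was hardly detected in PP cells. It had a UMI in 0 of 18 PP cells (limit of 3 counts 16.7%) and in 2 of 246 (0.813%, 0.0986 to 2.91). In Sst-only cells it had a UMI in 9 of 26 and 55 of 237 (23.2%), in insulin-only cells in 0.642% and 0.930%, and in 0 of 122 and 0 of 1488 non-endocrine cells. Neurog3 passed the filter on low values only through the Sst-only columns, so no test of its class means is given. The TdTomato row had a UMI in 0 of 18 and 84 of 246 PP cells (34.1%, 28.2 to 40.4), against 0% and 17.7% of non-endocrine cells with median depths of 8391 and 2896 UMIs. After thinning to 2000 UMIs the joint table had 5.76% of PP cells and 10.1% of non-endocrine cells. Thinning equalizes the total, in which Ppy and Pyy had means of 3747 and 1083 CP10K in PP cells and left fewer UMIs for other genes. These shares therefore cannot show whether the row lies above background in PP cells. In the joint table this row stands where the ROSA26 transcript is listed in the reference order, and whether both tables measure the same RNA under this name was not tested.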

How the data were processed

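Single-cell RNA of islets was measured in 3 samples of 1 group with the 10x Genomics 3-prime system. The authors deposited raw UMI counts for replicate 1 (library 1, 27474046 UMIs in 1146 columns). Per the submitters' processing notes Cell Ranger 3.2.0 and 5.0.0, cutadapt 2.5, FastQC 0.11.8 and Seurat 4.0.0 were used on mm10. For replicates 2 and 3 the authors deposited 1 joint table of natural log (ln) values, namely ln of the UMIs per 10000 of the cell plus 1. Its columns summed to 10000 after the exponential minus 1, and 100% of 35558086 values were whole multiples of the value of 1 UMI within 0.001, so UMIs (196833349 in 13042 distinct cells) were recovered. Of 16050 columns, 3008 under 1 barcode suffix repeat another suffix and were dropped. The mitochondrial limit took out 255 columns of library 1 and 0 of the other table.

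Cells with at least 500 genes, 1000 UMIs and at most 20% mitochondrial UMIs were kept and assigned to classes by the hormone limits. Non-endocrine cells are those below all hormone limits with at least 5 UMIs of endothelial, immune, stromal or glial markers. Class means per table (10 columns, 4 residual degrees of freedom) were compared with limma 3.58.1 (lmFit, eBayes with trend; R 4.3.3) as stated in the report, for genes with 0.1 CP10K or more in at least 2 columns. The 5 hormone genes of the rule and the TdTomato row were left out. Alternatives were a pseudocount of 0.5, no filter, no centring, CP10K without the hormone genes, no table block, edgeR 4.0.16 and DESeq2 1.42.0 on summed UMIs, each table's PP column left out, a Ppy limit of 400 CP10K, and leaving out cells with non-endocrine markers or in the top 5% of UMIs. Those with insulin under 500 CP10K or Iapp under 100 CP10K were added after the data were seen. The scripts were tested on simulated data. There limma recovered 51 to 59 of 100 genes changed 2-fold and 99 to 100 of 100 changed 4-fold. Among 7138 genes it called 35 unchanged ones against the Sst-only class and 0 to 3 in the other comparisons.

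Named genes are the 12 most raised and 12 most lowered called genes against Gcg-only cells (8 and 8 for Sst-only and insulin-only cells, 5 and 5 for cells with both hormones), with 1 direction in both tables and 3 blocks and at least 0.5 CP10K in the higher class. Up to 4 members of each of 22 lists were added, called ones first, with their values in the other comparisons, and also Pyy, Neurog3, TdTomato and the 12 genes of largest Fano factor. Members and lists were chosen with earlier results of these data known. Some genes in the text fall outside this rule and were chosen after their values were seen, among them Gc, Hhex, Vsig1, Npy, Mafa outside the insulin-only comparison, Fos and those that describe the Iapp-high cells. Some genes that the rule names are not reported here.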

Additional observations from a re-analysis of the deposited data

How the results depend on the processing

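Calls against Gcg-only cells numbered 378 and moved to 962 without centring, 161 with no replicate block, 1039 with edgeR, and 157 to 644 when either table's PP column was left out (library 1 and joint table). Against cells with both hormones, 136 calls moved to 89 without the filter, 215 without centring, 40 with no replicate block, 226 with edgeR, and 46 to 332. Against Sst-only cells, 1004 moved to 4559 without the filter, 3390 without centring, 491 with no replicate block, 658 with DESeq2, and 355 to 1256. Against insulin-only cells, 1227 moved to 1977 without centring, 717 with no replicate block, 3274 with edgeR, 2095 with DESeq2, and 675 to 1325. The cause of these shifts was not tested, beyond the fewer columns where 1 is left out. The other alternatives stayed within 1.5 times. The table is the block here, since classes of 1 table come from the same mice, and without it calls were lost for 7 of the 46 genes named and called against Gcg-only cells, 20 of 38, 8 of 56 and 8 of 51 in the other comparisons, in the order above. Of the 46, 33 kept their call under every alternative, and of the others 16 of 38, 31 of 56 and 39 of 51. With Iapp under 100 CP10K, which limits Iapp by construction, Iapp differed by -0.43 from Gcg-only cells and -0.31 from cells with both hormones, and Mlxipl by -0.22 from the latter. Tshz2 against Gcg-only cells was -0.024 without centring. The PP share of the joint table was 1.83% at an insulin limit of 1000 CP10K, below the interval of its main value, and otherwise stayed inside it. With 18 PP cells in library 1, shares there have wide intervals.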

Other observations

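Many enteroendocrine and ghrelin genes had no UMI in PP cells, and the same held in classes of like size. Of 19 such genes listed in the joint table, 10 had no UMI in the 246 PP cells, among them Gip, Cck, Sct and Tac1. The count was 10 in the 258 cells with both hormones and 9 in the 237 Sst-only cells. It was 6 in the 930 Gcg-only cells and 3 in the 7095 insulin-only cells, so it does not set PP cells apart. Ghrl, the ghrelin gene, had a UMI in 2 of 246 PP cells (0.813%) and in 0.202% of non-endocrine cells. Cartpt, a neuropeptide gene, had a UMI in 0 of 18 and 1 of 246 PP cells. The 14 genes of the cell cycle had a mean sum of 1.60 and 1.28 CP10K in PP cells. It was 2.17 and 2.01 in Gcg-only cells and 0.757 and 0.704 in insulin-only cells. Mki67 and Top2a had no UMI in the 18 PP cells of library 1, nor in its 28 cells with both hormones. In the joint table their means in PP cells were 0.0018 and 0.0015 CP10K.

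The insulin-rich cells with Ppy just outside the rule, 1 in library 1 and 69 in the joint table, had a median of 53850 and 23390 UMIs, above the PP cells. Their mean Chga was 42.3 and 66.6 CP10K, lower than the 218 and 169.5 of the Iapp-high PP cells.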
